A study of Homo sapiens with 6 samples.

Results

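The 9 genes described here encode the histone methyltransferase SETDB1, its partners TRIM28, ATF7IP and ATF7IP2, the HUSH complex with its effector MORC2, and the SETDB1-binding protein RESF1. They were taken by gene symbol from the 18677 gene rows of a count table. All 9 had a row and all 9 passed the filter on low counts, which left 17675 genes for testing. FAM208A and KIAA1551 are the names in the annotation used for genes now called TASOR and RESF1.

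SETDB1 deposits H3K9me3, a repressive mark that keeps retroelements, imprinted genes and some gene clusters silent. KRAB zinc finger proteins bind DNA and recruit TRIM28, which brings SETDB1 to the site through its sumoylated bromodomain. ATF7IP holds SETDB1 in the nucleus and protects it from degradation. The HUSH complex, built from TASOR, MPP8 (the product of MPHOSPH8) and periphilin (the product of PPHLN1), reads H3K9me3 and silences long intronless transcribed elements, with SETDB1 as writer and the ATPase MORC2 as compactor.

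The cells were H1299, a long-established line from a human non-small cell lung carcinoma. The SETDB1 knockout group (guide hSETDB1 sg1) and the control knockout group (guide Control sg2) had 3 RNA-seq libraries each, and both groups were grown with puromycin. Each group rests on 1 guide. Whether the lines were clones and whether replicates were separate cultures is not given in the labels, so p-values measure the spread between these samples only. The libraries held 29532057 to 34320279 counts in the SETDB1 knockout and 30729681 to 35941288 in the control. The carcinoma markers KRT8, KRT18 and VIM had means of 157, 332 and 2216 CPM (counts scaled to a common library total) in SETDB1 knockout cells, against 367, 599 and 2430 CPM in control cells. Of 7 markers of blood, endothelial and fibroblast cells, 5 had no row and were not analysed here, and the other two, CD68 and COL1A1, averaged 0.508 and 0.746 CPM in SETDB1 knockout cells, against 0.262 and 1.16 CPM in control cells.

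Promoter sequences from RefSeq (GRCh38.p14) were matched for 7 of the 9 genes. The windows are shown for the targeted gene and for the 3 genes on chromosome 12, of which ATF7IP and RESF1 were higher and PPHLN1 was lower in the SETDB1 knockout. Each window runs from 250 bases before to 50 bases after a transcription start, on the plus strand, 5′ to 3′. Capitals mark matches, on either strand, to any of the 6 motifs searched. These were the CCAAT box with that sequence, the GC box spelled as GGGCGG, the E box of the form CACGTG, the cAMP response element written TGACGTCA, an ETS motif read as CCGGAAG and the TATA box taken as TATAAA. A match on the minus strand appears as its reverse complement. The PPHLN1 start used by RefSeq lies inside the span that the annotation of the counts gives to this gene.
SETDB1, chr1:150926013-150926312: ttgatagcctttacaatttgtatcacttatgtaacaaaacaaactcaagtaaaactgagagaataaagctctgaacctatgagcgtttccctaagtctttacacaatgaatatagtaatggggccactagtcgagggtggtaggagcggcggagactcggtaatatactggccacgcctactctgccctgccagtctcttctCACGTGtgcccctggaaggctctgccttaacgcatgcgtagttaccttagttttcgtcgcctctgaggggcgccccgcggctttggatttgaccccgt
ATF7IP, chr12:14365432-14365731: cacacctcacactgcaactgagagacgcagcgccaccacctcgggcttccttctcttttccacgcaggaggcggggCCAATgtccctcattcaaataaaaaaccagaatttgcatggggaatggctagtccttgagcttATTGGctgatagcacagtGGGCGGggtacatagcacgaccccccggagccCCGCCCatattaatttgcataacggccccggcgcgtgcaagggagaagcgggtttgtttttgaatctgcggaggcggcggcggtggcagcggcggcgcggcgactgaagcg
RESF1, chr12:31959165-31959464: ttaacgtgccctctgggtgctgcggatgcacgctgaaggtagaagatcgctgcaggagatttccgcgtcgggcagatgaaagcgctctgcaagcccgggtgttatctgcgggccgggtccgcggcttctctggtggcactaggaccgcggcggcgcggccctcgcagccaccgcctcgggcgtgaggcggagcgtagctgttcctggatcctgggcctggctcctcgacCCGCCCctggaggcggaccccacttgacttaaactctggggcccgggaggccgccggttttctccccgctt
PPHLN1, chr12:42325917-42326216: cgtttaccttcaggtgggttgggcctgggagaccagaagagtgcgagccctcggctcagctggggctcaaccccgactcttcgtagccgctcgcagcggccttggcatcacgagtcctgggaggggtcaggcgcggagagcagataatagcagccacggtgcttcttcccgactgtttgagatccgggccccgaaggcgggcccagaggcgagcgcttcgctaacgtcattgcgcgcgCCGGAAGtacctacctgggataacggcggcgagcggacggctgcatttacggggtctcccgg

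The ATF7IP window held CCAAT at 2 places and GGGCGG at 2 places, and the RESF1 window held GGGCGG at 1 place. The SETDB1 window held 1 CACGTG, and the PPHLN1 window held 1 CCGGAAG. No motif of the 6 was in all 4 windows. Of 27305 RefSeq promoters of the same length, 35.7% held CCAAT, 44.6% GGGCGG, 7.43% CACGTG and 10.7% CCGGAAG. TGACGTCA and TATAAA, in 1.98% and 12% of promoters, had no match in the 4 windows. A match describes letters in a window and does not show a bound site.

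The comparison asks whether the genes of the SETDB1 and HUSH machinery are themselves expressed differently when SETDB1 is targeted. ATF7IP, TRIM28, RESF1 and ATF7IP2 rose by 1.54-fold to 1.88-fold, MORC2 and TASOR rose by 1.22-fold and 1.12-fold, and PPHLN1 and SETDB1 fell. MPHOSPH8 did not pass the test. In all, 6 of the 9 genes were higher and 2 were lower by edgeR's quasi-likelihood test, where 63.5% of all genes tested passed in either direction (31.9% higher, 31.6% lower) and 71% of those with a mean of at least 10 CPM. Called changes of at least 1.5-fold were found for 5 of the 9 genes, against 27.3% of all genes tested. Of these, 4 were higher (14% of all genes tested) and 1 was lower (13.3%). The libraries of the groups did not overlap for 8 of the 9 genes and for 66.8% of all genes tested. Since so many genes passed, the count of calls says little about these 9 in particular. Their median log2 fold change was 0.28, against 0.0095 for all genes tested.

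**Figure D1:**
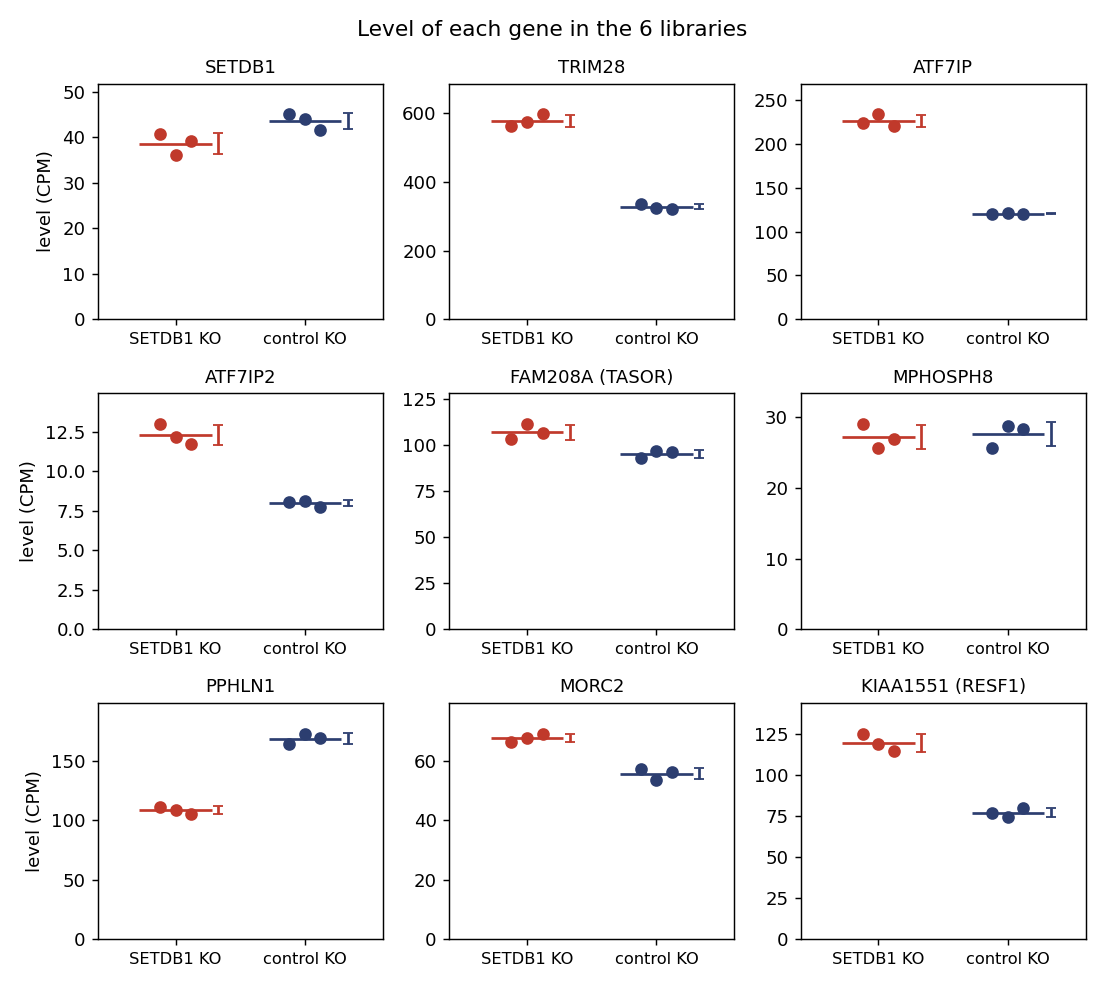
Level of each of the 9 genes in every library, in CPM (counts scaled to a common library total after TMM), with the SETDB1 knockout at left and the control knockout at right. Points are libraries, lines are means and bars are SD (n = 3 each); the groups overlap for MPHOSPH8 and for none of the other 8.

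The targeted gene SETDB1 (ENSG00000143379, chromosome 1, plus strand, with 17 annotated transcripts) spans 150926263 to 150964744 and was checked first. Its transcripts made up 40.6, 36.1 and 39.1 CPM of the SETDB1 knockout libraries, against 45.0, 44.0 and 41.6 CPM in the control libraries. The groups did not overlap, but the highest knockout library was only 2.36% below the lowest control library. SETDB1 fell by 0.17 ± 0.06 on the log2 scale (SE; 95% interval -0.30 to -0.05; edgeR's quasi-likelihood test, Benjamini-Hochberg adjusted p = 0.0151). SETDB1 was no longer called when SETDB1 knockout replicate 2 was left out (-0.13, edgeR adjusted p = 0.0896), nor when libraries were scaled by their totals only (-0.13, edgeR adjusted p = 0.0605). Relative to the 50 expressed genes around it, whose median was 0.11, SETDB1 was lower by more, at -0.28 (edgeR adjusted p = 4.84e-04). Here and below, a median taken out was entered as a fixed value, so such p-values leave out the spread of the neighbours. Of all genes tested, 71.1% changed by more than SETDB1 did. A frameshift made by a guide need not lower the mRNA, and reads over the guide's cut site were not separated from the rest of the gene, so this level checks the labels only in part. In bulk RNA, fewer cells with the transcript and less transcript per cell cannot be told apart.

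TRIM28, the co-repressor that links KRAB zinc finger proteins to SETDB1, was the most abundant of the 9 (ENSG00000130726, chromosome 19, 58544091 to 58550722, plus strand). It had 561, 575 and 596 CPM in the SETDB1 knockout libraries, against 335, 325 and 321 CPM in the control libraries. Every knockout library was at least 67.3% above the highest control library. TRIM28 rose 1.76-fold (log2 fold change 0.82 ± 0.05 SE, edgeR adjusted p = 6.21e-11). It lies near the end of chromosome 19, and of the 29 expressed genes around it that could be used, 28 rose and 0 fell, with a median log2 fold change of 0.66. Relative to that median, TRIM28 was called higher by 0.16 (edgeR adjusted p = 0.0153). The neighbours ran from 0.19 to 1.81, a spread that this p-value leaves out. The part of the neighbours in its rise was not tested. Of these 29 genes, 12 changed by more than TRIM28 did.

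ATF7IP, the cofactor that stabilises SETDB1 (ENSG00000171681, chromosome 12, 14365632 to 14502935, plus strand), had the largest change of the 9. Its level was 224, 234 and 220.3 CPM in the SETDB1 knockout libraries, against 119, 121 and 120.1 CPM in the control libraries. The control libraries were nearly identical, with a coefficient of variation of 0.497%, and the lowest knockout library was 82.5% above the highest of them. ATF7IP rose 1.88-fold (log2 fold change 0.91 ± 0.05 SE, edgeR adjusted p = 7.09e-12), and 15.02% of all genes tested changed by more. The 50 expressed genes around it had a median of 0.10, and 49 of them were below it. Relative to that median, ATF7IP was called higher by 0.81 (edgeR adjusted p = 6.09e-11).

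ATF7IP2, the paralog of ATF7IP that works with SETDB1 in male meiosis in the mouse (ENSG00000166669, chromosome 16, 10326434 to 10483638, plus strand), was the least abundant of the 9. It had 13.0, 12.2 and 11.8 CPM in the SETDB1 knockout libraries, against 8.04, 8.14 and 7.77 CPM in the control libraries. The groups were clearly apart. ATF7IP2 rose 1.54-fold (log2 fold change 0.63 ± 0.08 SE, edgeR adjusted p = 7.99e-07). All 50 expressed genes around it changed by less in that direction, and their median was 0.06.

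Among the subunits of the HUSH complex, PPHLN1 fell, TASOR rose slightly and MPHOSPH8 was not called. PPHLN1, whose product periphilin binds RNA (ENSG00000134283, chromosome 12, 42238447 to 42459715, plus strand), had 112, 109 and 105 CPM in the SETDB1 knockout libraries, against 164, 173 and 169.7 CPM in the control libraries. Every knockout library was below every control library. PPHLN1 fell by 0.64 ± 0.05 on the log2 scale (SE; edgeR adjusted p = 1.62e-09), which leaves 0.642 of the control level. Its surroundings also fell: the 50 expressed genes around it had a median of -0.29, and 9 of the nearest 10 fell and 1 rose, with a median of -0.78. With the median of the 50 taken out, the log2 fold change was -0.35 (edgeR adjusted p = 9.32e-06). With the median of the nearest 10 taken out, an alternative chosen after the data were seen, it was 0.14 (edgeR adjusted p = 0.0300), so the direction of PPHLN1 relative to its surroundings depended on how many neighbours were used.

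TASOR, the scaffold that joins the other HUSH subunits (FAM208A, ENSG00000163946, chromosome 3, 56620133 to 56683237, minus strand), had 103, 111 and 107 CPM in the SETDB1 knockout libraries, against 92.8, 96.8 and 96.05 CPM in the control libraries. The groups were narrowly separated, by 6.34%. TASOR rose 1.12-fold (log2 fold change 0.17 ± 0.05 SE, edgeR adjusted p = 0.00801). The 50 expressed genes around it had a median of 0.15, and with that taken out the log2 fold change was 0.02 and the call was lost (edgeR adjusted p = 0.788). The call was also lost without SETDB1 knockout replicate 2 (edgeR adjusted p = 0.0618).

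MPHOSPH8, whose product MPP8 binds H3K9me3 with its chromodomain (ENSG00000196199, chromosome 13, 19633681 to 19673459, plus strand), had 29.03, 25.7 and 26.9 CPM in the SETDB1 knockout libraries, against 25.7, 28.7 and 28.4 CPM in the control libraries. The ranges overlapped almost fully. Its log2 fold change was -0.02 ± 0.07 (SE; edgeR adjusted p = 0.771), with a 95% interval of -0.16 to 0.11, so a change beyond 0.895-fold or 1.08-fold lies outside the interval. With the median of its nearest 5 expressed genes (-0.24) taken out, an alternative chosen after the data were seen, MPHOSPH8 was called higher at 0.21 (edgeR adjusted p = 0.00941). These 5 genes ran from -0.39 to 0.29, a spread that this p-value leaves out.

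MORC2, the ATPase that HUSH recruits to compact chromatin (ENSG00000133422, chromosome 22, 30925130 to 30968298, minus strand), had 66.5, 67.7 and 69.03 CPM in the SETDB1 knockout libraries, against 57.1, 53.6 and 56.4 CPM in the control libraries. Its groups were separated by 16.4%. MORC2 rose 1.22-fold (log2 fold change 0.28 ± 0.05 SE, edgeR adjusted p = 8.22e-05). The 50 expressed genes around it had a median of 0.23, and with that taken out the call was lost, at 0.05 (edgeR adjusted p = 0.408).

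RESF1, which binds SETDB1 and takes part in retroelement silencing in mouse embryonic stem cells (KIAA1551, ENSG00000174718, chromosome 12, 31959370 to 31993107, plus strand), had 125, 119 and 115 CPM in the SETDB1 knockout libraries, against 77.0, 74.3 and 79.8 CPM in the control libraries. Every knockout library was at least 43.7% above the highest control library. RESF1 rose 1.55-fold (log2 fold change 0.64 ± 0.05 SE, edgeR adjusted p = 3.07e-09). The 50 expressed genes around it had a median of -0.03, while the nearest 10 had a median of 0.35. It was called higher with either median taken out, at 0.67 and 0.28 (edgeR adjusted p = 2.14e-09 and 1.59e-04). The 50 include PPHLN1 and its nearest 10 expressed genes, of which 9 fell and 1 rose. RESF1 is in turn among the 50 around PPHLN1.

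**Figure D2:**
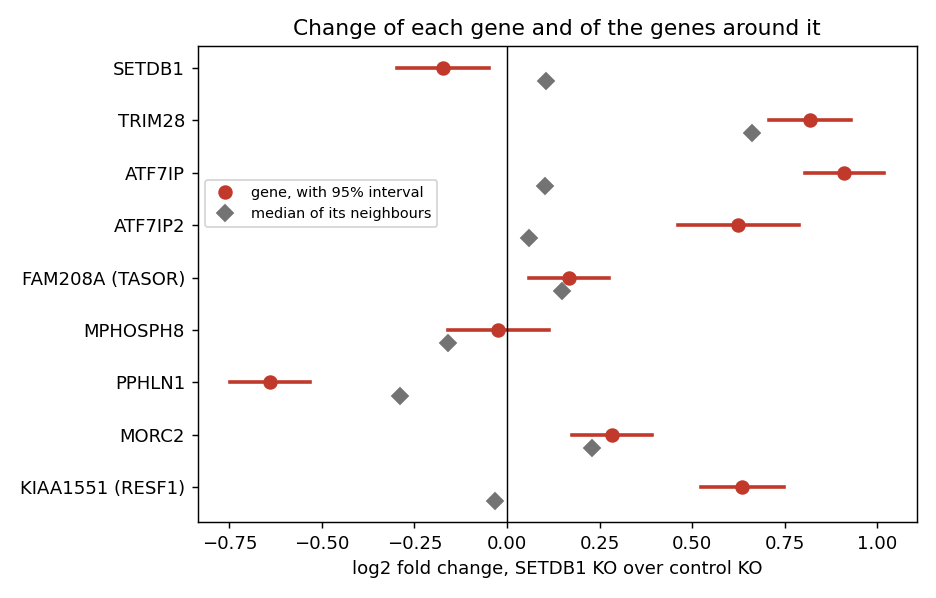
Log2 fold change of each of the 9 genes, SETDB1 knockout over control knockout (circles, with 95% intervals from edgeR), and the median of up to 25 expressed genes on each side of it (diamonds). ATF7IP, ATF7IP2 and RESF1 lie far to the right of their diamonds, whereas TRIM28, TASOR and MORC2 lie near theirs.

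**Figure D3:**
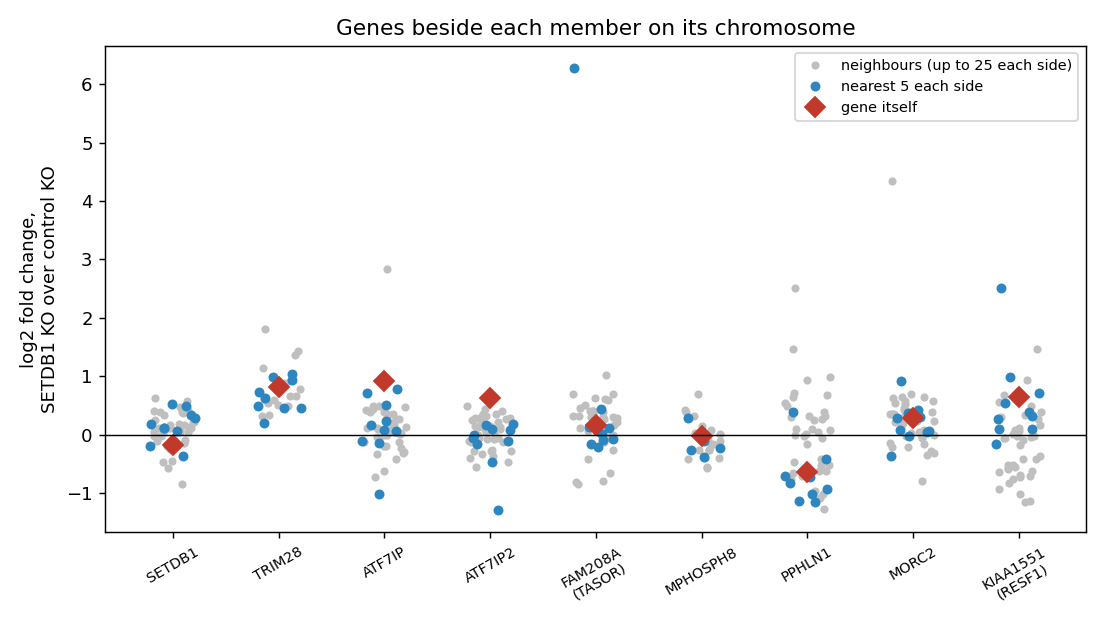
Log2 fold change, SETDB1 knockout over control knockout, of each of the 9 genes (diamonds), of the nearest 5 expressed genes on each side (larger points) and of the next ones out to 25 on each side (smaller points). Around TRIM28 all points lie above 0, and around PPHLN1 9 of the nearest 10 lie below 0.

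Chromosome 12 carries 3 of the 9 genes, and they did not move together: ATF7IP and RESF1 rose while PPHLN1 fell. The nearest 10 expressed genes had medians of 0.12 around ATF7IP, 0.35 around RESF1 and -0.78 around PPHLN1, and their part in these changes was not tested.

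Levels of different genes were compared per kb of annotated exon. In the SETDB1 knockout the order was TRIM28, RESF1, ATF7IP, TASOR, MORC2, PPHLN1, MPHOSPH8, SETDB1 and ATF7IP2, with means from 143 ± 4.34 CPM per kb for TRIM28 to 1.93 ± 0.0980 for ATF7IP2 (SD, n = 3). In the control the order was TRIM28, PPHLN1, RESF1, TASOR, ATF7IP, MORC2, SETDB1, MPHOSPH8 and ATF7IP2, with means from 81.1 ± 1.81 to 1.25 ± 0.0300 CPM per kb. PPHLN1 was thus second in the control, at 13.9 ± 0.363 CPM per kb, and the sixth in the SETDB1 knockout, at 8.92 ± 0.274 CPM per kb. Neighbours in the order whose libraries overlapped were RESF1 with ATF7IP, TASOR with MORC2 and MPHOSPH8 with SETDB1 in the knockout, and ATF7IP with MORC2 in the control. Per kb of the longest transcript, TRIM28 stayed first and ATF7IP2 last in both groups, but the order between them changed in places: PPHLN1 was then the fourth in the SETDB1 knockout.

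**Figure D4:**
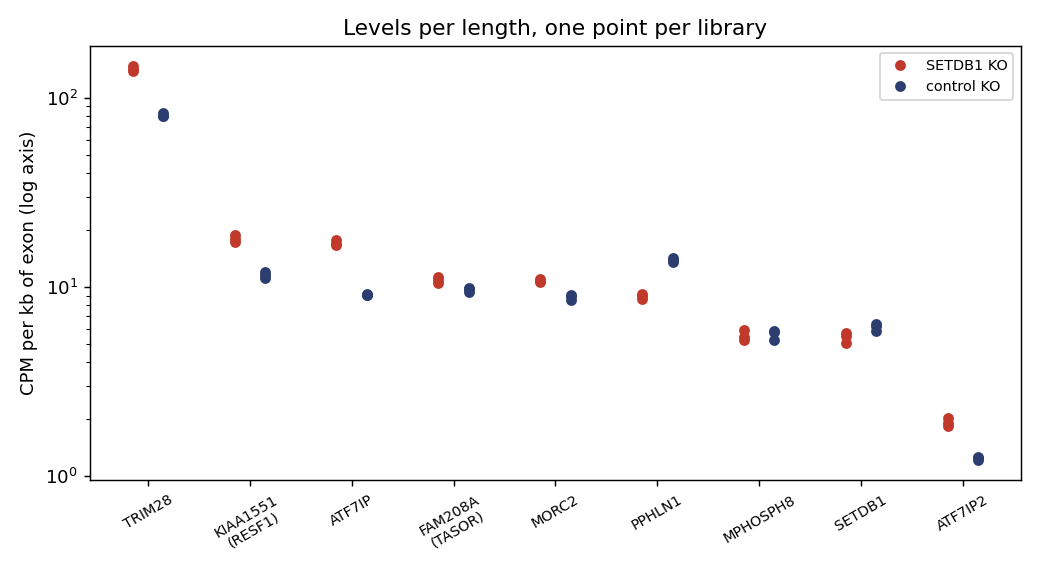
Level of each gene in CPM per kb of annotated exon on a log axis, with 1 point per library, ordered by the mean of the SETDB1 knockout. TRIM28 lies above all others in both groups, and PPHLN1 is the gene whose control points lie clearly above its SETDB1 knockout points.

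Ratios to SETDB1, which itself fell, were taken within each library. They were higher in the knockout for all the other genes but PPHLN1. MPHOSPH8, which was not called, averaged 1.02 times SETDB1 in the knockout, against 0.919 times in the control. PPHLN1 averaged 1.64 times SETDB1 in the knockout, against 2.27 times in the control. Per kb, TRIM28 was 24.3, 28.03 and 26.8 times SETDB1 in the SETDB1 knockout libraries, against 13.1, 13.0 and 13.6 times in the control libraries. ATF7IP was 2.96, 3.49 and 3.03 times SETDB1 in the knockout, against 1.43, 1.48 and 1.55 times in the control. These ratios did not overlap between the groups and, being taken within a library, do not depend on its scaling. Within the HUSH complex, PPHLN1 was 0.875, 0.790 and 0.796 times TASOR in the SETDB1 knockout, against 1.43, 1.44 and 1.43 times in the control. MPHOSPH8 was 0.565, 0.463 and 0.506 times TASOR in the knockout, against 0.554, 0.594 and 0.592 times in the control, and these ranges overlapped. The mRNA ratios say nothing of the amounts of protein.

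Some of these genes share sequence with a gene on the other strand, and the sources used here do not say whether reads were counted by strand. CERS2 overlaps SETDB1 over 4162 bases and was far more abundant, at 419 ± 11.5 CPM in SETDB1 knockout cells, against 404 ± 23.2 CPM in control cells (SD, n = 3 each). CCDC66 overlaps TASOR over 1686 bases, ZCRB1 lies within PPHLN1 over 14041 bases and PRICKLE1 overlaps its end, and AC131649.2, a locus at 1.12 ± 0.105 CPM in SETDB1 knockout cells, against 1.06 ± 0.214 CPM in control cells, lies within ATF7IP2 over 4439 bases. The values of SETDB1, TASOR, PPHLN1 and ATF7IP2 are uncertain to that extent.

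For SETDB1 and for each called gene of at least 1.5-fold, the genes with the most similar profile over the 6 libraries were looked up among 9416 genes, those with a mean of at least 10 CPM less pseudogenes and genes with clone-style or non-coding series names. The measure was the root mean square difference of log2 CPM, each gene centred on its own mean. Genes with a group difference of similar size come close by this measure, and shared regulation was not tested. Nearest to SETDB1 were TRIM41, which encodes a ubiquitin ligase, at 0.0175 and the zinc finger gene ZNF394 at 0.0233. Nearest to ATF7IP were TEX15, a germline gene, at 0.0324 and NAXE, a metabolite repair enzyme gene, at 0.0372. Nearest to TRIM28 were the cancer-testis gene CTAG2 at 0.0284 and PYGB, which encodes a glycogen phosphorylase, at 0.0292. Nearest to PPHLN1 were SP140L at 0.00595 and the kinase gene ROCK1 at 0.0225. Nearest to ATF7IP2 were TMCO6 and ZNF587 at 0.0234 and 0.0287, and nearest to RESF1 were the mitochondrial enzyme genes PMPCB and PCCB at 0.0211 and 0.0268.

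The other genes of the pathway were read from 7 lists. Of their 71 tested genes, 19 rose and 26 fell, with list medians between -0.10 and 0.08. Since 31.9% of all genes tested were higher and 31.6% were lower, these counts and those of the single lists are descriptions and set none of the lists apart. Among the other H3K9 methyltransferases and the HP1 proteins, 2 rose and 3 fell of 8. EHMT2, the partner of EHMT1 in H3K9 dimethylation, had 125, 130.2 and 137 CPM in the SETDB1 knockout libraries, against 66.3, 66.8 and 65.1 CPM in the control libraries, a rise of 0.99 ± 0.05 (SE) on the log2 scale (edgeR adjusted p = 3.54e-12), among neighbours at 0.29. Its partner EHMT1 fell by 0.31 ± 0.05, and CBX3, an HP1 gene, fell by 0.40 ± 0.06 with neighbours at -0.39. With that median taken out CBX3 stood at -0.0078 and was not called (edgeR adjusted p = 0.922), and EHMT2 stood at 0.69 and was called. SETDB2, the closest relative of SETDB1, was not called, at -0.09 ± 0.07.

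Of 11 H3K9 demethylase genes, 2 rose and 5 fell. The count of those that rose was 0 without control replicate 2 and 1 without SETDB1 knockout replicate 1 or replicate 3. JMJD1C, the steepest of them, had 81.0, 77.6 and 73.8 CPM in the SETDB1 knockout libraries, against 144, 138 and 135 CPM in the control libraries. It fell by 0.84 ± 0.05 (SE) on the log2 scale (edgeR adjusted p = 4.66e-11), among neighbours at -0.59, and was called at -0.25 with that median taken out. KDM4A rose by 0.18 ± 0.05 and was not called without control replicate 2 (0.15, edgeR adjusted p = 0.0528).

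TRIM28 works with the NuRD deacetylase and remodelling complex, of which 4 of 13 subunit genes rose and 4 fell. CHD3, the remodeller that binds sumoylated TRIM28, had 266, 237 and 251 CPM in the SETDB1 knockout libraries, against 139.7, 134 and 140.03 CPM in the control libraries. It rose 1.82-fold (edgeR adjusted p = 4.66e-11), among neighbours at a median log2 fold change of 0.59, and was called at 0.27 with that median taken out. The deacetylase genes HDAC1 and HDAC2 moved apart, HDAC1 by 0.40 ± 0.05 and HDAC2 by -0.35 ± 0.05 (SE) on the log2 scale; HDAC2 was called higher, at 0.15, with its neighbourhood median of -0.50 taken out (edgeR adjusted p = 0.0174). Of the 6 remodellers and histone chaperones, 1 rose and 2 fell: HELLS, a remodeller of heterochromatin, fell by 0.68 ± 0.05 and ATRX by 0.39 ± 0.05, while CHAF1B rose by 0.13 ± 0.05 and lost its call in 8 of 18 alternatives, among them the removal of any 1 library other than control replicate 3. The neighbours of HELLS had a median of -0.66, and with it taken out HELLS stood at -0.03 and was not called (edgeR adjusted p = 0.654).

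Sumoylation links TRIM28 to SETDB1, and of 18 genes of the SUMO pathway 5 rose and 7 fell. UBA2, a subunit of the SUMO-activating enzyme, had 239, 267 and 260.4 CPM in the SETDB1 knockout libraries, against 489, 517 and 569.8 CPM in the control libraries. It fell by 1.04 ± 0.06 (SE) on the log2 scale (edgeR adjusted p = 2.43e-11), among neighbours at -0.91. Its partner SAE1 rose by 0.28 ± 0.06, with neighbours at 0.30. The SUMO protease gene SENP3 rose by 0.71 ± 0.06, with neighbours at 0.64. With their medians taken out, UBA2 stood at -0.13 (edgeR adjusted p = 0.0907) and SENP3 at 0.07 (edgeR adjusted p = 0.319). Neither UBA2 nor SENP3 was then called, and for SAE1 that value is not given here.

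Of 9 paralogs of the genes described here, 8 were tested, of which 2 rose and 3 fell. The count of those that rose was 1 without SETDB1 knockout replicate 2 or 3 and without control replicate 1 or 2. TRIM33, a relative of TRIM28, rose by 0.36 ± 0.06 (SE) on the log2 scale, and was called at 0.20 with the median of its neighbours taken out. TASOR2 (FAM208B), the paralog of TASOR, was not called, at -0.11 ± 0.05 (edgeR adjusted p = 0.0610). CDYL2, which has a chromodomain like that of MPP8, fell by 0.70 ± 0.22 at a mean of 0.704 CPM in SETDB1 knockout cells, against 1.16 CPM in control cells, and was not called without control replicate 1 (-0.54).

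Of 7 genes for RNA and ubiquitin factors tied to HUSH or SETDB1, 3 rose and 2 fell. RBM7 and MTREX, which belong to a nuclear RNA decay complex, went opposite ways, with RBM7 lower by 0.74 ± 0.07 and MTREX higher by 0.47 ± 0.05 (SE) on the log2 scale. The other gene of this list that fell, ZCCHC8, did so by 0.18 ± 0.05 (edgeR adjusted p = 0.00316). UBE2E1, an E2 enzyme that ubiquitinates SETDB1, rose by 0.52 ± 0.15 at 3.02 ± 0.0143 CPM in SETDB1 knockout cells, against 2.12 ± 0.534 CPM in control cells (SD, n = 3 each). With the median of its neighbours (0.20) taken out, UBE2E1 stood at 0.31 and was not called (edgeR adjusted p = 0.0887). ZNF638, which encodes a DNA-binding partner of HUSH, was not called, at 0.02 ± 0.06.

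**Figure D5:**
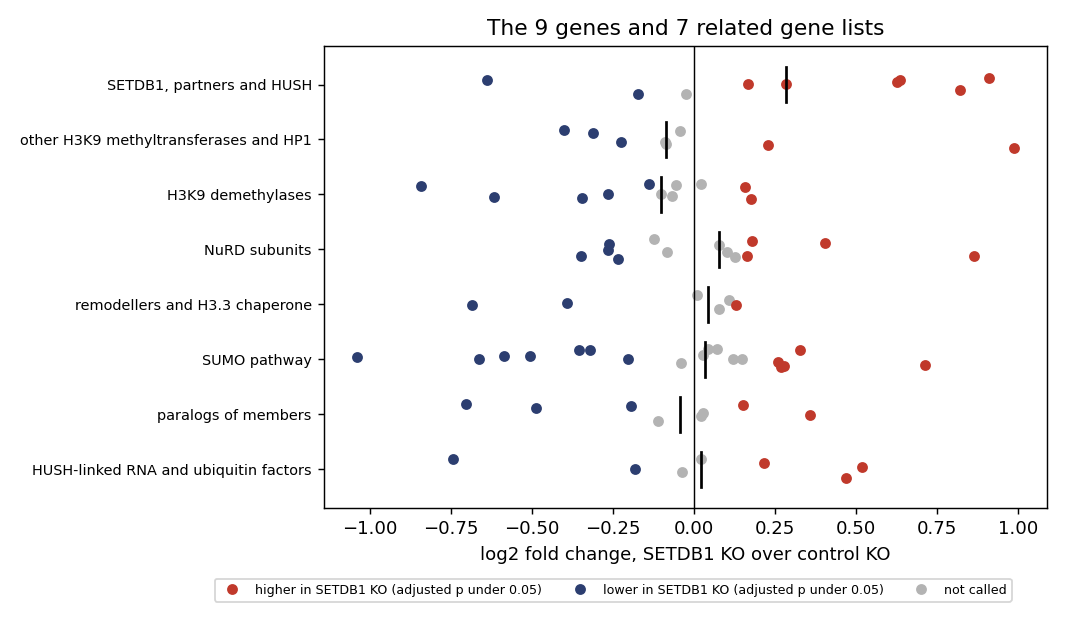
Log2 fold change, SETDB1 knockout over control knockout, of the 9 genes and of the 71 tested genes of 7 related lists (1 point per gene, coloured by the edgeR call at an adjusted p under 0.05; black lines are medians). Of the 9 genes 6 are higher, the median of all 9 is 0.28, and the 7 lists hold points on both sides with medians near 0.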

How the data were processed

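Total RNA of frozen H1299 cells was made into libraries with an Illumina TruSeq RNA kit, per the labels' protocols. The deposited values are raw read counts by Ensembl gene in 1 table; its smallest row maximum was 11. FastQC, TopHat2, HTSeq and the build GRCh38.p7 are named in the submitters' processing notes, and the sources used here give no version or strand setting. Identifiers were matched without version to GENCODE 29 (GRCh38), which named 18595 of 18677.

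Groups came from the sample titles. Tests used R 4.3.3 and edgeR 4.0.16 (filterByExpr, TMM, robust glmQLFit and glmQLFTest), with Benjamini-Hochberg adjustment over 17675 genes and a threshold of 0.05; 1002 genes were filtered out. The common biological coefficient of variation was 4.89%, and 1 count was worth 0.0282 to 0.0334 CPM. Replicates differed by more than counting error (chi-square per degree of freedom 2.33 to 10.4). Neighbourhood medians used 25 expressed genes on each side, fewer at chromosome ends, and were taken out as an offset. The offset was a fixed value, so p-values after it do not include the spread of the neighbours. Expressed meant a log2 of the mean CPM over the 6 libraries above 3. The edgeR fit and the neighbourhood median were tested on simulated data. The simulated counts had few changed genes and no regional shift, and taking out the offset was not tested that way.

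The members and lists were chosen with earlier results of these data known. From each list, the called gene with the largest change in each direction and at least 1 CPM in the higher group was named. Others were chosen after their values were seen, among them EHMT1, SETDB2, HDAC1, ATRX, SAE1, TASOR2, MTREX, ZCCHC8 and ZNF638. Alternatives were other scalings, filters, thresholds, DESeq2 1.42.0, limma-voom (limma 3.58.1), a replicate block and each library left out.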

Additional observations from a re-analysis of the deposited data

How the results depend on the processing

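ATF7IP and TRIM28 were called higher in all 18 alternatives, over 0.88 to 0.95 and 0.79 to 0.86 on the log2 scale outside the 2 that took out a neighbourhood median. With a test against a fold of 1.5 (glmTreat), SETDB1 (-0.17), ATF7IP2 (0.63), TASOR (0.17), PPHLN1 (-0.64), MORC2 (0.28) and RESF1 (0.64) were not called, genes called fell to 1556 higher and 1496 lower, and list genes to 3 higher and 3 lower. At an adjusted p under 0.01, SETDB1 (-0.17) was not called. With library size alone SETDB1 stood at -0.13 and was not called. Leaving out each library gave -0.21 to -0.13 for SETDB1, 0.13 to 0.19 for TASOR and -0.075 to 0.012 for MPHOSPH8, and SETDB1 and TASOR lost their calls without SETDB1 knockout replicate 2. MPHOSPH8, not called, changed sign with library size alone (0.017) and upper-quartile scaling (0.0091), and with neighbourhood medians of 25 (0.14) and 5 genes each side (0.21, called). With medians of 25 and 5 genes each side, TASOR stood at 0.018 and 0.11 and MORC2 at 0.052 and 0.11, and neither was called. HDAC2 changed sign (0.15 and 0.20), and PPHLN1 did so with 5 (0.14). With 25 genes each side SETDB1 stood at -0.28 and with 5 at -0.32, called in both. CBX3, HELLS, UBA2, SENP3 and UBE2E1 lost their calls with 25, and CBX3 and UBE2E1 also with 5. The cause was not tested.

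The replicate number as a block gave 5864 genes higher and 5839 lower, against 5635 and 5584 without it, and changed no call of the 9 genes. Same-numbered libraries deviated from their group means with correlations of 0.409, -0.156 and 0.223 over 9966 genes, and SETDB1 knockout replicate 2 correlated best with control replicate 3, so the numbers were not taken as pairs.

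Per kb of the longest transcript, the means over the 6 libraries moved to 9.25 CPM per kb for SETDB1, 152.8 for TRIM28, 19.5 for ATF7IP, 2.77 for ATF7IP2, 14.2 for TASOR, 6.47 for MPHOSPH8, 23.2 for PPHLN1, 11.9 for MORC2 and 15.8 for RESF1. The call of a change under 0.2 on the log2 scale rests on 3 libraries a group.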

Other observations

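Genes that start beside the 9 genes, or overlap them, gave a mixed picture. ZCRB1, which encodes an RNA-binding protein, starts 49 bases from the RefSeq start of PPHLN1 on the other strand, and it fell with PPHLN1: it had 60.5, 62.8 and 60.9 CPM in the SETDB1 knockout libraries, against 74.8, 80.4 and 92.04 CPM in the control libraries, which is -0.43 ± 0.06 on the log2 scale (SE; edgeR adjusted p = 9.00e-06). YAF2, a Polycomb-associated gene next to the first annotated base of PPHLN1, fell by 0.93 ± 0.10, to 18.0 ± 3.60 CPM in SETDB1 knockout cells, against 34.4 ± 1.37 CPM in control cells (SD, n = 3 each). PRICKLE1, which overlaps the end of PPHLN1 over 2959 bases, was called higher at 0.29 ± 0.11 (edgeR adjusted p = 0.0317), although its libraries overlapped between the groups.

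TUG1, a long non-coding RNA that starts 471 bases from the RefSeq start of MORC2 on the other strand, was not called while MORC2 rose: it averaged 259.7 ± 14.4 CPM in SETDB1 knockout cells, against 249.6 ± 1.67 CPM in control cells, and differed by 0.06 ± 0.05 on the log2 scale (edgeR adjusted p = 0.374). CCDC66, which overlaps the end of TASOR, fell by 0.22 ± 0.06 (edgeR adjusted p = 0.00426) while TASOR rose. The difference between TUG1 and MORC2 was not tested.

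The steepest neighbours of the 9 genes, named after their values were seen, were ESRG and NEFH. ESRG, a long non-coding RNA of pluripotent cells that derives from an endogenous retrovirus, is among the nearest 10 expressed genes to TASOR and was called higher in the SETDB1 knockout by 6.28 on the log2 scale, while TASOR rose by 0.17. NEFH, a neurofilament gene near MORC2, was called higher by 4.34, while MORC2 rose by 0.28. The floor for an expressed gene used the mean of all 6 libraries. A gene that rose this far can pass it through the knockout libraries alone. Levels of ESRG and NEFH in the control are not given here.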
